A study of Mus musculus with 16 samples.

Results

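The smooth muscle contractile and actin stress fibre genes are 41 named genes, of the 29060 gene symbols summed from the deposited transcript table. They were chosen by name with earlier results of these data known, so comparisons of their counts with all genes are descriptive. Of the 41, 40 passed the filter on low values described below. Kcnmb1, the beta subunit of a potassium channel of smooth muscle, did not pass, with 0 to 5 reads per library, and was not tested. The 40 tested members comprise 3 actins, 5 transgelins and calponins, 7 thin filament proteins, 8 genes of myosin and its control, 11 crosslinkers and scaffolds, 4 adhesion site proteins, the intermediate filament gene Des and the transcription factor gene Srf.

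RNA was measured by sequencing in primary mouse preadipocytes, the precursors of fat cells, isolated from the stromal-vascular fraction of inguinal white fat or interscapular brown fat. All mice were C57BL/6N carrying a Ucp1 reporter, so controls carry it too. Each depot had 4 control libraries and 4 libraries of cells treated with Fgf8b, a secreted ligand of fibroblast growth factor receptors, 16 in all. The age and sex of the mice, the dose and how long cells were treated were each not given in the sources used here. The design text names 3 independent cultures while each group holds 4 libraries, and no label ties a library to a culture. The p-values therefore measure only the spread between libraries, which may be partly technical. One label calls the cells adipocytes. Adipoq, Plin1 and Cidec, which mark mature fat cells, were each below 0.1 RPKM in the mean of every group, and Lep, Retn and Cfd were listed at 0. These are the 6 of 10 adipocyte markers below 1 RPKM in their overall mean. The others, Fabp4, Pparg, Cebpa and Lipe, were not below it.

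In smooth muscle, force comes from myosin II filaments that pull on actin filaments after myosin light chain kinase has phosphorylated the regulatory light chain. Stress fibres of fibroblast-like cells use the same design with non-muscle myosins, alpha-actinins and tropomyosins, and end in focal adhesions that couple them to integrins. Many genes of both systems are targets of serum response factor, which binds a DNA element called the CArG box together with cofactors of the myocardin family. Precursor cells of fat carry stress fibres in culture, and loss of these fibres is known to accompany their differentiation.

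The CArG box is written as CC, then 6 bases that are each A or T, then GG, and it reads the same way on both strands. RefSeq promoter windows of 250 bases before to 50 bases after each start were found for 36 of the 41 members (build GRCm38.p6). At least 1 box lay in the windows of 7 of these 36 (19.4%), against 488 of all 27025 genes in that promoter table (1.81%). Actg2, Tagln, Myh11, Synpo and Csrp2 had no entry. The 60-base windows that hold the boxes are printed here, since they belong to members that responded to Fgf8b in different ways. Capitals mark the box. For Acta2, capitals mark 2 sequences that differ from the box by a single G or C among the middle 6 bases.
Acta2, chr19:34255398-34255457, minus strand: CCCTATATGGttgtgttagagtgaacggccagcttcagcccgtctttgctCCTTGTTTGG
Acta1, chr8:123894814-123894873, minus strand: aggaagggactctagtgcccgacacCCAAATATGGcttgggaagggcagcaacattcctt
Myl9, chr2:156775278-156775337, plus strand: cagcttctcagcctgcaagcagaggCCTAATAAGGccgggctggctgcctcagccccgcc
Vcl, chr14:20929148-20929207, plus strand: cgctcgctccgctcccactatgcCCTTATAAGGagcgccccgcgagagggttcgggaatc
Cnn2, chr10:79988519-79988578, plus strand: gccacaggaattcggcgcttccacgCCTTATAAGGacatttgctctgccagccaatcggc
Myl6, chr10:128493025-128493084, minus strand: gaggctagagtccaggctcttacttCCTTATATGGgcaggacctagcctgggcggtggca
Filip1l, chr16:57549155-57549214, plus strand: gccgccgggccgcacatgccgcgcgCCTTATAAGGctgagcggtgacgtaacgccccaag
Srf, chr17:46556200-46556259, minus strand: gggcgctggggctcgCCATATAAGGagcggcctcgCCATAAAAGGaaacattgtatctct

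Counted from the start, the box of Acta1 lies at -73 to -64, that of Cnn2 at -56 to -47, that of Myl6 at -50 to -41 and that of Filip1l at -62 to -53. The box of Myl9 lies farther out, at -161 to -152, and that of Vcl at -227 to -218. Srf, which encodes the factor itself, has 2 boxes in its own window, at -82 to -73 and at -62 to -53. Of the genes with this box, Acta1, Myl9 and Vcl fell in both depots with Fgf8b. Cnn2 and Myl6 were called lower in brown cells and not called in white cells. Filip1l rose in white and fell in brown cells, and Srf rose in both. The part of the box in these changes was not tested. A box with 1 such mismatch was found in 5 of the 36 members' genes (13.9%) and in 2620 of all genes (9.7%). These are letter matches, and no binding was measured here.

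Each library held 13.7 to 20.1 M reads, a depth read back from the smallest steps of its values. Library numbers 1 to 8 are all white and 9 to 16 all brown, and the effect of depot cannot be told apart from that of library number. Of the 299 accessions that the table lists more than once, 145 have unequal values in white libraries and 0 in brown libraries. Whether the depots were normalized together is not given in the sources used here. Brown control 15 stood apart: when the recovered reads of 2 libraries of a group were compared, chi-square divided by its degrees of freedom was 5.64 to 6.09 for pairs with it and 1.25 to 2.08 for other pairs. Counts of called members that use the brown controls are therefore also given without it, with the members whose call changed. Other levels and changes include it, and so do all shares of all genes. The culture is a bulk sample, in which fewer cells of a type and less RNA per cell cannot be told apart.

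Fgf8b lowered most of the contractile members in both depots, and 10 of them fell at least 2-fold in each: Mylk, Myh11, Lmod1, Itga1, Actg2, Acta2, Myl9, Acta1, Cnn1 and Tagln. The members that rose in both depots were Tagln2, Tpm3, Tpm4, Actn4, Zyx, Myh9 and Srf. In white cells 24 of the 40 tested members were lower and 13 higher, with a median log2 change of -0.28 against 0.04 over all 15222 genes tested. A change was called at a Benjamini-Hochberg adjusted p under 0.05 in limma. Over all genes 29.5% were called lower and 36.3% higher, 65.7% in either direction. In brown cells 29 members were lower and 7 higher, with a median of -0.40 against 0.01. The background there was 34.7% lower and 36.7% higher, 71.4% in all. Without brown control 15 the brown counts were 30 lower and 8 higher, with Flna (-0.09) and Tpm1 (0.07) added.

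At least 2-fold falls were called for 10 members in white cells and for 15 in brown cells, and those 10 were all among the 15. Over all genes 7.30% fell as far in white cells and 9.29% in brown cells. No member rose 2-fold in either depot, while 4.39% and 5.01% of all genes did. In all, 22 members were lower in both depots (24.2% of all genes), 7 were higher in both (28.5%) and 4 moved in opposite directions (2.69%). The other 7 were called in 1 depot only (26.3% of all genes). Levels below are RPKM of a representative transcript, the RefSeq entry of the gene with the highest mean, given as mean ± SD of 4 libraries. Changes are differences of log2(summed RPKM + 0.5) with their standard error, where the sum runs over all transcript entries of the gene. The added 0.5 makes changes of genes with low values, such as Myh11, smaller than the ratio of their RPKM.

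**Figure D1:**
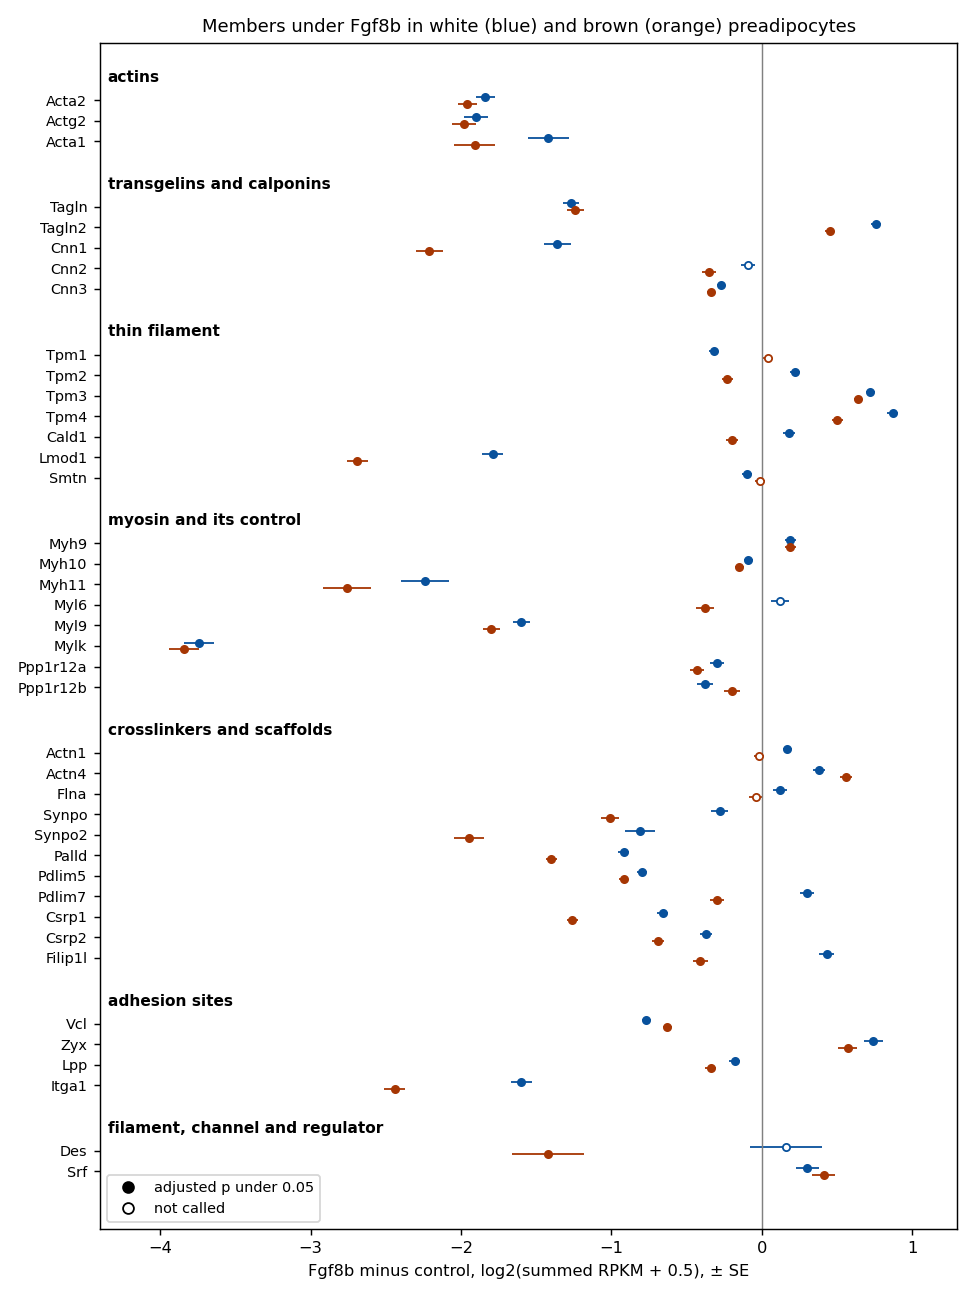
Change of each tested member with Fgf8b in white (blue) and brown (orange) preadipocytes, as the difference of log2(summed RPKM + 0.5) with its standard error, grouped by role. Filled points were called at an adjusted p under 0.05. Smooth muscle genes such as Mylk (-3.74 and -3.84) lie far to the left, and Tpm3, Tpm4, Tagln2, Zyx and Actn4 lie to the right of 0 in both depots.

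All 3 actin members fell in both depots. Acta2, the alpha actin of vascular smooth muscle, stood at 593.7, 669.8, 626.5 and 675.2 RPKM in the white controls and at 180.5, 188.4, 178.3 and 168.5 with Fgf8b (libraries are given in the order of their numbers throughout). In brown cells Acta2 stood at 1105.9, 1091.7, 1119.1 and 910.5 RPKM in controls and at 268.8, 292.9, 245.4 and 276.1 with Fgf8b. No treated library of either depot came near any control, and the brown controls were the highest of the 4 groups. The log2 change of Acta2 was -1.84 ± 0.06 in white (3.58-fold, adjusted p = 7.16e-15) and -1.96 ± 0.06 in brown cells (3.89-fold, adjusted p = 2.09e-15).

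Actg2, the gamma actin of enteric smooth muscle, was 25.9, 32.3, 29.6 and 32.8 RPKM in white controls and 8.86, 8.69, 7.18 and 7.11 with Fgf8b. Brown controls had 69.2, 69.1, 70.7 and 62.9 RPKM of Actg2 and treated brown cells 17.4, 18.3, 15.5 and 18.4. Treated brown cells thus kept less Actg2 than any white control, although brown controls had more than all white libraries. The changes of Actg2 were -1.90 ± 0.08 and -1.98 ± 0.08. Acta1, the skeletal muscle alpha actin, was far less abundant, with 4.73, 6.91, 5.20 and 6.93 RPKM in white controls and 1.64, 2.27, 1.87 and 2.42 after Fgf8b. In brown cells Acta1 went from 9.55, 9.72, 10.1 and 7.82 RPKM to 2.27, 2.59, 2.06 and 2.19. The groups did not overlap in either depot, and the changes of Acta1 were -1.42 ± 0.14 and -1.91 ± 0.14. Actb, the non-muscle beta actin and not one of the 41, rose from 717 ± 18.9 to 1174 ± 15.3 RPKM in white and from 744 ± 47.7 to 1090.3 ± 42.8 in brown cells, a change of 0.70 ± 0.04 and 0.55 ± 0.04.

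The 2 transgelins moved in opposite directions, and none of the 3 calponins rose. Tagln, an actin-bundling protein of smooth muscle also called SM22 alpha, was 363.4, 406.0, 385.0 and 411.9 RPKM in white controls against 163.2, 167.9, 162.2 and 156.7 with Fgf8b. In brown cells Tagln was 527.4, 505.1, 497.6 and 458.4 RPKM in controls against 205.4, 229.5, 188.6 and 219.9. Every treated library was below every control, and the changes were -1.27 ± 0.05 and -1.24 ± 0.05. Tagln2, its broadly expressed relative, went the other way, from 213 ± 5.94 to 361 ± 5.03 RPKM in white and from 247 ± 11.3 to 335 ± 8.43 in brown cells. The changes of Tagln2 were 0.76 ± 0.03 (adjusted p = 1.98e-13) and 0.45 ± 0.03 (adjusted p = 3.71e-10).

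Cnn1, the smooth muscle calponin that restrains actomyosin, was 22.7, 28.6, 24.6 and 29.0 RPKM in white controls and 10.9, 10.7, 8.68 and 10 with Fgf8b. Brown controls held 48.9, 45.1, 43.6 and 40.3 RPKM of Cnn1 and treated brown cells 8.81, 10.5, 8.83 and 9.42. The treated groups of the depots overlapped, while brown controls lay above all white controls. Cnn1 changed by -1.36 ± 0.09 in white and by -2.21 ± 0.09 in brown cells. The non-muscle calponins had smaller changes: Cnn2 by -0.09 ± 0.05 in white (adjusted p = 0.0887) and -0.35 ± 0.05 in brown cells, and Cnn3 by -0.27 ± 0.03 and -0.34 ± 0.03.

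Among the thin filament members only Lmod1 fell 2-fold. Lmod1, a leiomodin that nucleates actin filaments in smooth muscle, was 8.42, 9.31, 8.65 and 9.23 RPKM in white controls and 2.74, 2.69, 2.43 and 2.18 with Fgf8b. In brown cells Lmod1 was 14.7, 16.1, 15.8 and 15.4 RPKM in controls and 2.12, 2.53, 2.09 and 2.12 with Fgf8b. Control groups of the depots were well apart and treated groups overlapped. The changes of Lmod1 were -1.79 ± 0.07 and -2.69 ± 0.07, or 3.46-fold and 6.45-fold.

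The 4 tropomyosins, coiled-coil proteins that lie along the actin filament, did not move together. Tpm3 rose from 47.1 ± 1.57 to 76.8 ± 1.63 RPKM in white and from 50.8 ± 1.41 to 79.6 ± 2.57 in brown cells, by 0.72 ± 0.03 and 0.64 ± 0.03. Tpm4 rose from 354.5 ± 11.8 to 645 ± 10.2 RPKM and from 436 ± 19.0 to 616 ± 21.6, by 0.87 ± 0.04 and 0.50 ± 0.04. Tpm1, among the most abundant members, fell in white cells from 588 ± 13.6 to 472 ± 4.52 RPKM, by -0.32 ± 0.03, and had a change of 0.04 ± 0.03 in brown cells (adjusted p = 0.257), which turns to -0.01 and -0.05 under 2 other scalings. Tpm2 rose by 0.22 ± 0.04 in white and fell by 0.23 ± 0.04 in brown cells. Cald1, the caldesmon that blocks myosin's access to actin, likewise changed by 0.18 ± 0.04 and -0.20 ± 0.04. Smtn, a smoothelin that binds actin, had -0.10 ± 0.03 and -0.01 ± 0.03.

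**Figure D2:**
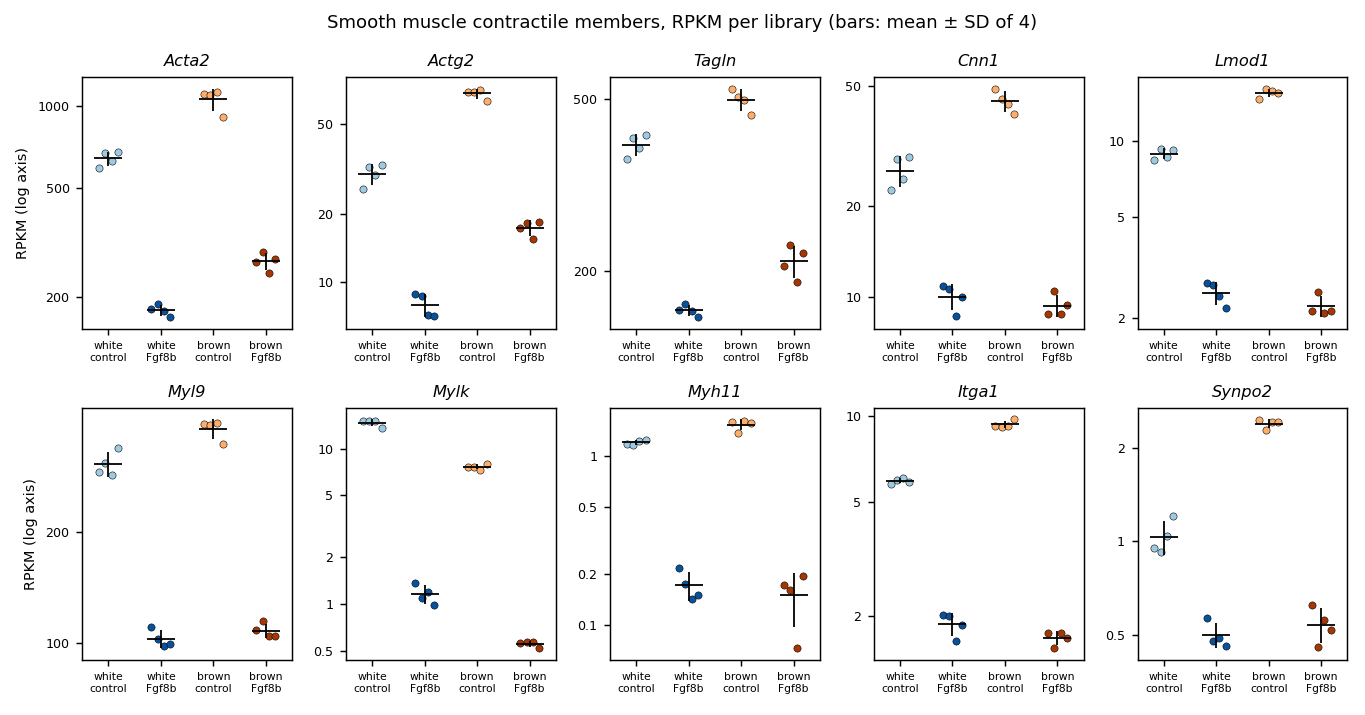
RPKM of 10 members in each library (log axis), 4 libraries per group, with bars for mean ± SD. Treated libraries lie below all controls of their depot in each panel, from 641 to 179 RPKM for Acta2 and from 14.7 to 1.16 RPKM for Mylk in white cells.

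Of all members, Mylk fell most. Mylk, the myosin light chain kinase, was 15.1, 15, 15 and 13.6 RPKM in white controls and 1.37, 1.10, 1.20 and 0.991 with Fgf8b. In brown cells Mylk was 7.64, 7.65, 7.34 and 8.02 RPKM in controls and 0.568, 0.569, 0.570 and 0.523 with Fgf8b. Treated libraries held less than any control by a wide margin, and brown libraries less than white ones under either treatment, unlike most members. The changes of Mylk were -3.74 ± 0.10 in white (13.4-fold) and -3.84 ± 0.10 in brown cells (14.3-fold).

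Myh11, the smooth muscle myosin heavy chain, was low in all libraries: 1.18, 1.17, 1.23 and 1.24 RPKM in white controls and 0.218, 0.175, 0.143 and 0.150 with Fgf8b. Brown controls had 1.60, 1.37, 1.61 and 1.57 RPKM of Myh11 and treated brown cells 0.171, 0.161, 0.0727 and 0.196, which rest on 7 to 19 reads per library. Its controls and treated libraries were separate in both depots, with changes of -2.24 ± 0.16 and -2.76 ± 0.16. The non-muscle heavy chains changed little by comparison, Myh9 by 0.19 ± 0.04 in each depot and Myh10 by -0.09 ± 0.03 and -0.15 ± 0.03. Myh9 was the more abundant, at 169 ± 6.86 RPKM in white controls, against 55.9 ± 1.46 for Myh10. The white call of Myh10 was lost without white control 3 (-0.08) or white Fgf8b 2 (-0.07).

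Myl9, a regulatory light chain and the substrate of the kinase, was 290.7, 307.5, 285.6 and 338.1 RPKM in white controls and 110.4, 102.2, 97.8 and 98.9 with Fgf8b. In brown cells Myl9 was 392.3, 390.0, 394.8 and 347.1 RPKM in controls and 108.0, 114.6, 104.4 and 104.2 with Fgf8b. The treated groups of both depots came to much the same level and overlapped. The changes of Myl9 were -1.60 ± 0.06 and -1.80 ± 0.06. Myl6, an essential light chain, had 0.12 ± 0.06 in white (adjusted p = 0.0836) and -0.38 ± 0.06 in brown cells. The targeting subunits of myosin phosphatase, which opposes the kinase, were lower: Ppp1r12a by -0.30 ± 0.05 and -0.43 ± 0.05, and Ppp1r12b by -0.38 ± 0.05 and -0.20 ± 0.05. Ppp1r12b depends on the transcript counted, as given below.

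The 11 crosslinkers and scaffolds had different counts in the depots. In white cells 5 rose and 6 fell, none of them 2-fold, and in brown cells 1 rose, 8 fell and 4 of these fell 2-fold. Of all genes 36.3% rose and 29.5% fell in white cells, 7.30% by at least 2-fold. In brown cells 36.7% of all genes rose and 34.7% fell, 9.29% by at least 2-fold. Synpo2, which encodes myopodin, an actin-bundling protein of muscle, was 0.952, 0.924, 1.04 and 1.21 RPKM in white controls and 0.565, 0.479, 0.489 and 0.461 with Fgf8b. In brown cells Synpo2 was 2.46, 2.29, 2.42 and 2.42 RPKM in controls and 0.623, 0.457, 0.558 and 0.517 with Fgf8b. Brown controls stood above all other libraries, and the treated groups of the depots overlapped. The changes of Synpo2 were -0.81 ± 0.10 and -1.95 ± 0.10.

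Synpo, the synaptopodin of stress fibres and podocytes, was 29.6, 30.2, 29.0 and 30.9 RPKM in white controls and 24.2, 24.6, 24.4 and 22.6 with Fgf8b. Brown controls had 47.3, 46.1, 45.7 and 38.4 RPKM of Synpo and treated brown cells 22.1, 22.6, 21.6 and 20.5. The fall was shallow in white cells (-0.28 ± 0.06) and 2-fold in brown cells (-1.01 ± 0.06), with no overlap in either. Palld, the palladin that ties alpha-actinin to actin bundles, was 30.2, 31.4, 31.7 and 33.3 RPKM in white controls and 16.6, 16.7, 16.3 and 15.9 with Fgf8b. In brown cells Palld was 28.8, 30.0, 33.2 and 28.8 RPKM in controls and 10.6, 11.4, 12.1 and 12.1 with Fgf8b. Controls of the 2 depots overlapped and treated groups did not, with changes of -0.92 ± 0.04 and -1.40 ± 0.04.

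Csrp1, a LIM protein of smooth muscle and stress fibres, was 169.1, 179.2, 177.5 and 173.7 RPKM in white controls and 113.9, 109.3, 111.7 and 108.6 with Fgf8b. In brown cells Csrp1 was 235.2, 234.1, 239.9 and 218.3 RPKM in controls and 95.4, 98.7, 93.1 and 99.2 with Fgf8b. Brown cells thus went from the highest to the lowest group. Its changes were -0.66 ± 0.04 and -1.26 ± 0.04. Csrp2, its relative, fell by 0.37 ± 0.04 and 0.69 ± 0.04 on the same scale, and Pdlim5, a PDZ and LIM scaffold, by 0.80 ± 0.03 and 0.92 ± 0.03.

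Other scaffolds rose or turned with the depot. Actn4, the non-muscle alpha-actinin 4 that crosslinks actin filaments, rose from 135.5 ± 5.85 to 176 ± 1.70 RPKM in white and from 148 ± 7.73 to 217 ± 5.38 in brown cells, by 0.38 ± 0.04 and 0.56 ± 0.04. Pdlim7 rose by 0.30 ± 0.05 in white and fell by 0.30 ± 0.05 in brown cells. Filip1l did the same, with 0.43 ± 0.05 and -0.41 ± 0.05. Filip1l went from 27.2 ± 1.25 to 36.6 ± 1.09 RPKM in white cells and from 34.4 ± 2.19 to 25.8 ± 1.36 in brown cells. Actn1, the alpha-actinin 1 of stress fibres, rose by 0.17 ± 0.03 in white cells and had -0.02 ± 0.03 in brown cells (adjusted p = 0.615). Flna, the filamin that links actin to membrane proteins, had 0.12 ± 0.04 and -0.04 ± 0.04, and its white call (adjusted p = 0.0275) was lost under 10 of 28 other settings.

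At adhesion sites the integrin fell and zyxin rose. Itga1, the alpha 1 chain of a collagen-binding integrin, was 5.80, 5.98, 6.08 and 5.90 RPKM in white controls and 2.02, 2.01, 1.64 and 1.87 with Fgf8b. In brown cells Itga1 was 9.24, 9.13, 9.23 and 9.71 RPKM in controls and 1.75, 1.55, 1.75 and 1.68 with Fgf8b. Each control group was clear of its treated group, and brown controls were above white controls. The changes of Itga1 were -1.60 ± 0.07 and -2.44 ± 0.07. Zyx, a LIM protein of focal adhesions and stress fibres, rose from 115 ± 3.74 to 192 ± 1.94 RPKM in white and from 152.5 ± 19.2 to 225 ± 8.62 in brown cells, by 0.74 ± 0.06 and 0.57 ± 0.06. Vcl, the vinculin that links integrins to actin, fell by 0.77 ± 0.03 and 0.63 ± 0.03, and Lpp, a LIM protein of the same sites, by 0.18 ± 0.04 and 0.34 ± 0.04.

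Srf rose in both depots, against the fall of most of the contractile genes. It stood at 13.1 ± 0.43 RPKM in white controls and 16.1 ± 0.39 with Fgf8b, and at 15.4 ± 1.94 and 20.6 ± 0.18 in brown cells, changes of 0.30 ± 0.08 and 0.41 ± 0.08. Des, the muscle intermediate filament desmin, rests on 3 to 35 reads per library. Its values were 0.297, 0.588, 0.301 and 0.282 RPKM in white controls and 0.427, 0.366, 0.485 and 0.432 with Fgf8b, groups that overlap. Brown controls had 0.711, 0.560, 0.438 and 0.666 RPKM of Des and treated brown cells 0.116, 0.0617, 0.159 and 0.285, which do not overlap. The change of Des was 0.16 ± 0.24 in white (adjusted p = 0.569) and -1.42 ± 0.24 in brown cells (adjusted p = 3.26e-05).

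**Figure D3:**
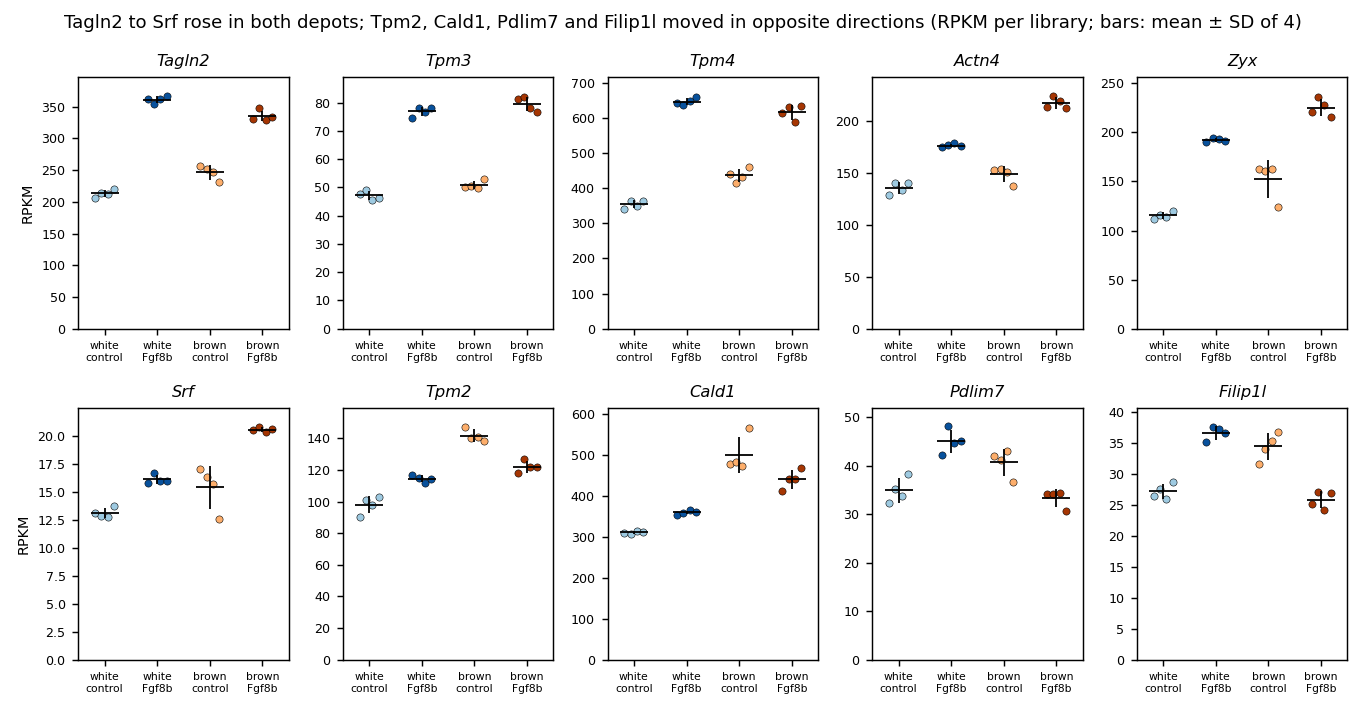
RPKM of 10 members in each library (axis from 0), with bars for mean ± SD of 4 libraries. Tagln2, Tpm3, Tpm4, Actn4, Zyx and Srf were higher with Fgf8b in both depots, while Tpm2, Cald1, Pdlim7 and Filip1l rose in white and fell in brown cells.

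The response to Fgf8b itself was compared between depots with an interaction term, brown minus white. It was lower in brown cells for 20 members, higher for 3 and not called for 17, with a median of -0.20 against -0.01 over all genes. Over all genes 17.8% were called lower and 17.1% higher, 34.9% in all. Of the 20, 10 fell in both depots and further in brown cells, 2 rose in both and less in brown cells (Tagln2, Tpm4), 4 moved in opposite directions (Tpm2, Cald1, Pdlim7, Filip1l) and 4 were called in 1 depot only (Cnn2, Myl6, Actn1, Des). Without brown control 15 the counts were 24 lower and 3 higher, and the shares of all genes were not computed for that fit. Acta2 (-0.19), Acta1 (-0.57), Myl9 (-0.23), Flna (-0.21) and Zyx (-0.26) were then called as well, and Pdlim5 was not. The call of Pdlim5 (-0.12, adjusted p = 0.0454 in limma) was lost in 11 of the 16 fits that each left out 1 library.

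The widest gaps in response were those of Des (-1.59 ± 0.34) and Synpo2 (-1.15 ± 0.14), the only 2 members past 2-fold, where 2.51% of all genes were as far below 0. Lmod1 followed with -0.90 ± 0.10, then Cnn1 (-0.86 ± 0.13), Itga1 (-0.84 ± 0.10) and Filip1l (-0.84 ± 0.07). The 3 members with a higher response in brown cells were Tpm1 (0.36 ± 0.04), which fell in white cells only, Actn4 (0.18 ± 0.06), which rose further, and Vcl (0.14 ± 0.04), which fell less. For other strongly lowered members the difference missed the threshold: Acta2 with -0.12 ± 0.09, Actg2 with -0.08 ± 0.11, Tagln with 0.03 ± 0.08, Myh11 with -0.52 ± 0.22 and Mylk with -0.09 ± 0.14. With the representative transcript alone, Mylk (0.25), Myh11 (-0.30), Acta1 (-0.49) and Myl9 (-0.24) were past the threshold. Mylk changed sign there, at treated levels of 1.16 RPKM in white and 0.558 in brown cells, near the 0.5 added before the log. Over all alternatives Acta1 gained the call in 10 of 27, Myl9 in 7 and Myh11 in 4.

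Without Fgf8b, 33 of the 40 members were higher in brown than in white cells and 2 were lower, with a median log2 difference of 0.31 against 0 over all genes. In that comparison 18.1% of all genes were called higher and 15.9% lower in brown cells, 33.9% in all. Without brown control 15 the counts were 34 and 2, with Cnn2 (0.15) added. Synpo2 (1.23 ± 0.10) and Actg2 (1.18 ± 0.08) were at least 2-fold higher in brown controls, where 2.05% of all genes were, followed by Lmod1 (0.80 ± 0.07), Cnn1 (0.76 ± 0.09), Acta2 (0.71 ± 0.06), Cald1 (0.67 ± 0.04) and Itga1 (0.66 ± 0.07). Mylk (-0.81 ± 0.10) and Myh10 (-0.15 ± 0.03) were the 2 members lower in brown controls, neither by 2-fold, where 1.31% of all genes were. The calls of Actn4 (0.12) and Srf (0.22), both higher in brown controls, were lost in 5 and 6 of the 16 fits without 1 library. Depot here goes with library number, and normalization apart for each depot cannot be told apart from a depot difference.

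With Fgf8b, 15 members were higher and 11 lower in brown than in white cells, and the median was 0.06 against 0.01. The background was 26.9% higher and 24.7% lower, 51.6% in all. Of the 33 members higher in brown controls, 14 were still higher, 13 were not called and 6 were lower in brown cells: Tagln2, Synpo, Pdlim7, Csrp1, Filip1l and Itga1. Of the 2748 genes higher in brown controls over the whole table, 53.4% were still higher, 34.4% were not called and 12.3% were lower. Among the 6, Itga1 (-0.17 ± 0.07) lost its call in 12 of the 16 fits that each left out 1 library, and Synpo (-0.17) lost it without white Fgf8b 6 or brown Fgf8b 16 (-0.14 in each). Ppp1r12a (0.11), among the 14, likewise lost its call in 12 of those 16 fits. Actg2 (1.09 ± 0.08) and Acta2 (0.59 ± 0.06) stayed higher in brown cells, Actg2 by over 2-fold, where 1.79% of all genes were. Filip1l turned from 0.34 ± 0.05 to -0.50 ± 0.05 and Pdlim7 from 0.21 ± 0.05 to -0.39 ± 0.05. Palld, with -0.04 ± 0.04 between controls (adjusted p = 0.441), was lower in brown cells with Fgf8b, by a log2 difference of -0.52 ± 0.04.

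**Figure D4:**
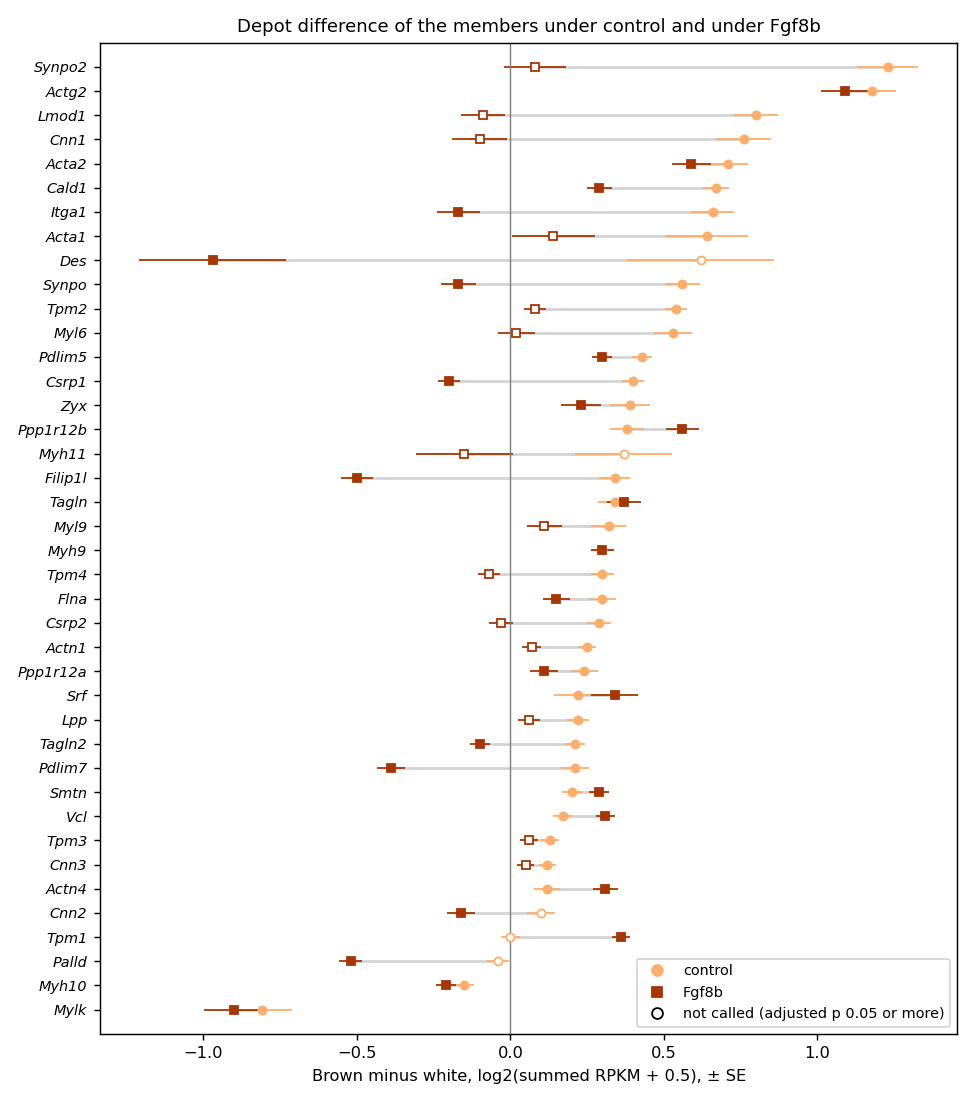
Difference between brown and white cells for each tested member, as log2(summed RPKM + 0.5) with its standard error, under control (circles) and Fgf8b (squares). Open symbols were not called. Under control 33 members lie to the right of 0 and were called, and under Fgf8b 15 do and 11 lie to the left.

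The transcript entries of a gene overlap in sequence, so they are not separate measurements. Over entries with a mean of at least 1 RPKM, all 33 of Tpm1 lay between -0.36 and -0.29 in white cells, and the 12 of Palld between -0.97 and -0.78. The 7 entries of Mylk all fell, by log2 differences of -3.72 to -1.80 in white and -3.76 to -1.20 in brown cells. Ppp1r12b differed among its entries. Its coding RefSeq entry NM_001081307 changed by 0.10 in white and 0.23 in brown cells, while its non-coding entry NR_015606 changed by -0.61 and -0.56. The 18 entries of Cald1 ranged from -0.20 to 0.33 in white and from -0.92 to 0.31 in brown cells.

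For 8 members more than 10% of the 31-base words of the transcript also occur in other genes, so their reads may be shared. These are Tpm3 (70.8%, with Tpm3-rs7), Myl6 (65.4%, with pseudogene models), Tagln (53.8%, with Gm48529 and Pcsk7), Cnn3 (40.8%), Vcl (39.4%, with Ap3m1), Tpm4 (20.5%), Smtn (16.2%) and Actn1 (12.7%). For the actins the share was 1.5% to 4.4%, and for Cnn1, Lmod1, Palld and Synpo2 it was 0%. The 4.4% is that of Acta1, with 4.0% shared with Actb. Since Actb is far more abundant, even this small share may matter for the reads of Acta1.

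Cofactors and partners of serum response factor gave 2 higher and 6 lower of 14 tested genes in white cells and 2 and 9 in brown cells, with medians of -0.15 and -0.28. Over all genes 36.3% were higher and 29.5% lower in white and 36.7% and 34.7% in brown cells, with medians of 0.04 and 0.01. Myocd, the myocardin that drives smooth muscle genes, was near the detection limit. It stood at 0.144 ± 0.027 RPKM in white controls and 0.0114 ± 0.0095 with Fgf8b, and at 0.135 ± 0.029 and 0.0265 ± 0.0191 in brown cells, with summed changes of -1.41 ± 0.18 and -1.13 ± 0.18. The actin-regulated cofactors were far more abundant and moved little. Mrtfa, listed as Mkl1, had 0.14 ± 0.07 (adjusted p = 0.0719) and -0.01 ± 0.07 (adjusted p = 0.887). Mrtfb, listed as Mkl2, had 0.03 ± 0.05 (adjusted p = 0.6) in white and fell by 0.23 ± 0.05 in brown cells. Elk3, an ETS partner of the factor, rose by 1.33 ± 0.04 and 1.02 ± 0.04, and Fhl3, a LIM-only protein, by 1.17 ± 0.07 and 1.18 ± 0.07. Its relative Fhl1 fell by 1.01 ± 0.04 and 1.84 ± 0.04, and Hopx, a homeodomain protein that restrains the factor, by 1.37 ± 0.13 and 0.30 ± 0.13.

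Of 26 focal adhesion and integrin genes, 14 were higher and 10 lower in white and 13 and 11 in brown cells, with medians of 0.14 and 0.13. The shares of all genes were 36.3% and 29.5% in white and 36.7% and 34.7% in brown cells. The integrins of the list went apart. Itga11, a collagen receptor chain like Itga1, fell from 20.6 ± 0.109 to 0.455 ± 0.081 RPKM in white and from 20.8 ± 1.12 to 0.396 ± 0.076 in brown cells, by -5.11 ± 0.11 and -5.31 ± 0.11. Itga8, which is also among the smooth muscle markers below, fell by 2.50 ± 0.10 and 2.14 ± 0.10. Itga6, a laminin receptor chain, rose from 2.29 ± 0.16 to 18.1 ± 0.74 RPKM and from 2.72 ± 0.06 to 17.3 ± 0.86.

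Among 31 other cytoskeletal actin-binding and myosin genes, 16 were higher and 10 lower in white and 11 and 13 in brown cells, with medians of 0.18 and -0.04. For all genes the shares higher and lower were 36.3% and 29.5% in white and 36.7% and 34.7% in brown cells. Pgm5, the aciculin of smooth muscle adhesion plaques, fell by 3.07 ± 0.20 and 3.33 ± 0.20, and Actc1, the cardiac actin, by 1.90 ± 0.25 and 1.97 ± 0.25. Pdlim2 rose by 1.18 ± 0.05 and 0.70 ± 0.05. Ppp1r14a, an inhibitor of myosin phosphatase, had -0.38 ± 0.28 in white (adjusted p = 0.256) and fell by 1.85 ± 0.28 in brown cells. Of 18 genes known to respond to TGF-beta, YAP or the MRTF cofactors, 11 were lower and 6 higher in white and 10 and 5 in brown cells, with medians of -0.27 and -0.48. Lox, which crosslinks collagen, fell by 2.25 ± 0.04 and 2.24 ± 0.04, Col1a1 by 2.11 ± 0.06 and 2.52 ± 0.06, Postn by 1.58 ± 0.05 and 2.69 ± 0.05, and Tgfb2 by 0.61 ± 0.07 and 2.40 ± 0.07. Ankrd1, a common readout of YAP, rose by 2.12 ± 0.07 and 1.89 ± 0.07.

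Markers of other cell types moved beside the members. With Fgf8b 29.5% of all genes were lower and 36.3% higher in white and 34.7% and 36.7% in brown cells. Of 16 pericyte and vascular smooth muscle markers 12 were tested, and 7 were lower and 4 higher in white and 9 and 1 in brown cells. Between controls 7 of the 12 were higher in brown cells, 5 of them at least 2-fold, and 3 lower, with a median of 0.46. Of all genes 18.1% were higher there, 2.05% by at least 2-fold, and 15.9% lower. Their response difference was lower in brown cells for 7, 6 of them at least 2-fold, and higher for 3, with a median of -0.97. Of all genes 17.8% were lower in that term, 2.51% by at least 2-fold, and 17.1% higher. The summed level of the 16 was 180.1 to 186.5 RPKM in white controls and 103.8 to 106.8 in treated white cells. It was 191.4 to 221.6 in brown controls and 110.2 to 115.9 in treated brown cells. Pdgfrb, which fibroblasts also express, stood at 129 ± 1.41, 46.2 ± 0.63, 140.5 ± 7.97 and 70.3 ± 1.62 RPKM. Kcnj8, Higd1b, Pln and Casq2, which mark pericytes or mature smooth muscle, were below 0.1 RPKM in the mean of every group. Rgs5, a pericyte marker, rose instead, by 4.52 ± 0.18 in white and 1.55 ± 0.18 in brown cells. The part of this list in the members' fall was not tested. Of 24 skeletal and cardiac muscle markers 22 were below 1 RPKM in their overall mean, and Myod1, Myf6 and Myh4 were listed at 0 in every library. Their sum was 6.61 to 7.62 and 3.85 to 5.14 RPKM in white controls and treated cells, and 7.01 to 11.9 and 4.40 to 5.49 in brown cells. Of 12 preadipocyte and fibroblast markers, 7 were lower and 5 higher in white and 9 and 2 in brown cells, and their sum went from 5683.7 to 5942.8 RPKM in white controls to 2886.7 to 3056.6 with Fgf8b, and from 3795.3 to 4336.1 to 1502.9 to 1577.8 in brown cells. Among adipocyte markers 4 of 10 were tested and 3 were lower in each depot. The sum of the 10 was 28.1 to 29.7 RPKM in white controls and 13.8 to 15.5 with Fgf8b. In brown cells that sum was 39.3 to 41.3 RPKM in controls and 19.6 to 23.4 with Fgf8b. For endothelial markers 6 of 10 were tested, with 4 lower and 1 higher in each depot and a sum of at most 12.7 RPKM in any library. Leukocyte markers, 4 of 9 tested, had 2 higher and 2 lower in each depot, and mesothelial markers, 5 of 8 tested, 2 higher and 1 lower in white and 3 and 1 in brown cells. The part of these cells in the members' changes was not tested.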

How the data were processed

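The authors deposited RPKM (reads scaled by transcript length and by sequencing depth) for 168326 transcript entries in 16 libraries, written with decimal commas. Per the labels' protocols, RNA came from TRIsure lysates cleaned on columns, and the TruSeq RNA Sample Prep kit v2 served for the libraries. CASAVA and bcl2fastq are named in the submitters' processing notes. Aligner, build and strand setting were each not given in the sources used here. Reads of a gene and an antisense partner therefore cannot be told apart. Of values up to 50 reads, 95.6% to 96.0% lay within 0.1 of a whole read. Entries without a symbol (23172, 13.8%) and 808 entries of 299 repeated accessions were left out, and 144549 entries were summed to 29060 genes. The 15222 genes that reached 0.5 RPKM in 4 or more libraries were taken as log2(RPKM + 0.5) and fitted over all 16 libraries with limma 3.58.1 in R 4.3.3 (trend, robust), with Benjamini-Hochberg adjustment over all genes. Counts for a count test were not used, since the unit is RPKM. Shared 31-base words come from GENCODE M21 and promoters from RefSeq. The test was also run on simulated data in which every gene had the same spread beyond counting noise. That run does not check the fit under the conditions of these data. On the data themselves 28 alternatives were run. Python 3.11.15, numpy 2.4.6, pandas 2.3.3 and matplotlib 3.10.9 did the rest. The members and the 12 lists beside them were chosen with earlier results of these data known. Members changed at least 2-fold are given in every library, and from 4 lists the 3 largest changes per depot among called genes whose mean reaches 1 RPKM are named. The results of 1 list are not reported here.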

Additional observations from a re-analysis of the deposited data

Results flagged for a closer look

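In 15 of 164 member groups the highest or lowest library lay far from the other 3, by Dixon's 95% limit, where chance gives about 1 in 20 groups, or 8. Brown control 15 was that library in 7 of the 15. It was lowest among brown controls for Acta2 (910.5 RPKM), Cnn2 (248.0), Myl9 (347.1), Actn4 (136.9) and Zyx (123.8), and highest for Cald1 (567.8) and Ppp1r12a (28.4). Zyx was 160.7 to 162.9 RPKM in the other brown controls. The other 8 were spread over 7 libraries. In brown cells with Fgf8b, Cnn3 was lowest in library 10 (153.8 RPKM), Lmod1 highest in library 12 (2.53), and Mylk (0.523) and Pdlim7 (30.7) lowest in library 16. Myh11 was lowest in brown control 11 (1.37 RPKM), Mylk in white control 7 (13.6) and Csrp2 in white Fgf8b 8 (96.4), while Des was highest in white control 3 (0.588).

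The response to Fgf8b differed between the depots for 23 of the 40 tested members by the interaction term in limma, with adjusted p-values of 5.1e-08 to 0.0454. Over all genes 34.9% were called in that term. Brown minus white, the differences of scaffolds were -1.15 for Synpo2, -0.84 for Filip1l, -0.73 for Synpo, -0.60 for Pdlim7, -0.60 for Csrp1, -0.48 for Palld, -0.32 for Csrp2, -0.18 for Actn1, -0.12 for Pdlim5 (a call lost in 11 of 16 fits without 1 library) and 0.18 for Actn4. Those of transgelins, calponins and thin filament genes were -0.90 for Lmod1, -0.86 for Cnn1, -0.46 for Tpm2, -0.38 for Cald1, -0.37 for Tpm4, -0.31 for Tagln2, -0.26 for Cnn2 and 0.36 for Tpm1. The rest were -1.59 for Des, -0.84 for Itga1, -0.51 for Myl6, -0.16 for Lpp and 0.14 for Vcl.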

How the results depend on the processing

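No paired analysis was possible because each library carries its own number and no number is shared between groups. The members called at least 2-fold lower with Fgf8b kept that direction and their call in all 700 values over 28 alternatives. Of 5560 alternative values of single members, 5378 kept direction and call status, 90 lost a call, 63 gained one and 29 changed sign, 2 of which belong to a called value. Counts of members stayed within 1.5 times, except the higher responses in brown cells, which went from 3 to 1 at an adjusted p under 0.01. Leaving out 1 library at a time gave 12 to 14 higher and 23 to 25 lower members in white cells, 7 to 8 and 29 to 30 in brown cells, 31 to 34 and 2 between controls, 14 to 18 and 9 to 11 between treated depots, and 3 to 4 and 19 to 24 for the response difference. The shares of all genes called in those fits were not computed. The called values that changed sign were Ppp1r12b with the representative transcript alone, 0.10 in white and 0.23 in brown cells, the brown one past the threshold.

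Values near 0 that were not called in the main fit changed sign as well. Tpm1 in brown cells was -0.01 with median-of-ratios and -0.05 with upper-quartile scaling. Myl6 between treated depots was -0.01 with upper-quartile scaling. The response difference of Myh9 was 0.01 with median-of-ratios scaling, the representative transcript and RefSeq entries alone, and that of Mylk was 0.25 with the representative transcript and with RefSeq entries alone, past the threshold. That Mylk transcript went from 14.7 to 1.16 RPKM in white and from 7.66 to 0.558 in brown cells. The treated values lie near the 0.5 added before the log, which shrinks a change more the lower the values are. The part of the added 0.5 in this change of sign was not tested. With 1 library left out, Smtn in brown cells ranged from -0.03 to 0.01 and Tpm1 between controls from -0.03 to 0.01. The response difference of Myh9 ranged from -0.03 to 0.02 and that of Tagln from -0.01 to 0.08. Between treated depots Myh11 ranged from -0.26 to 0.03 and Csrp2 from -0.06 to 0.01, each highest without brown Fgf8b 14. Other scalings moved the median of all genes by at most 0.09 on the log2 scale. Des and Myh11 rest on few reads, which limits their precision.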
